A study of Homo sapiens with 6 samples.

Results

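The 10 genes described here mark the mesenchymal state or drive the epithelial-mesenchymal transition (EMT). They were taken by name from a table of 58302 genes: the transcription factors *ZEB1*, *ZEB2*, *SNAI1*, *SNAI2* and *TWIST1*, the adhesion molecule *CDH2*, the filament protein *VIM*, the matrix genes *FN1* and *SPARC*, and the lectin gene *LGALS1*. Of the 10 genes, 8 were above 0 in at least 1 library, and 6 had a mean of at least 1 FPKM (fragments per kilobase, corrected for library size) over the libraries of the RIP table. RNA came from SW480 and DLD-1, established human colorectal cancer (CRC) lines, both labelled WT and untreated and both grown in the same medium. Each line gave 1 Input library of total RNA, 1 library of RNA pulled down with NAT10, the enzyme that acetylates cytidines in RNA (RIP-seq), and 1 of RNA fragments pulled down for the product of that enzyme, N4-acetylcytidine or ac4C (acRIP-seq). Beside the RIP table, a table made for acRIP-seq holds another set of values for each Input, which makes 6 expression columns in all. The labels name 1 Input sample per line. Whether both sets of values come from 1 library was not tested, so they are not counted as independent. Every group is a single library without replicates. Differences are therefore between single libraries, named by the line in their label (the SW480-labelled RIP), and all intervals cover counting error only.

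In EMT, epithelial cells lose their junctions and take on a motile, matrix-producing state. ZEB, SNAI and TWIST factors bind short E-box sequences in the promoters of epithelial genes and repress them, while vimentin, N-cadherin, fibronectin and SPARC rise. Members of the miR-200 family repress *ZEB1* and *ZEB2*, and ZEB1 in turn represses the miR-200 genes. Among CRC lines, SW480 is known for vimentin and ZEB1, and DLD-1 for a more epithelial state. The question asked of each pair of libraries was therefore whether it had this order.

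The miR-200 family is shown first, because its host gene stands on the epithelial list used below. Its mature sequences fall into 2 groups by seed, given in capitals (bases 2 to 8). They were taken from RefSeq (GRCh38.p14), written 5′ to 3′. The first 3 share the seed AAUACUG, and the last pair shares AACACUG.
hsa-miR-200b-3p: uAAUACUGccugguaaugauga
hsa-miR-200c-3p: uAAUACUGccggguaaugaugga
hsa-miR-429: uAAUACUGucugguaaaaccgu
hsa-miR-200a-3p: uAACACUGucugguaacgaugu
hsa-miR-141-3p: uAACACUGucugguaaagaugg

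The E-box that ZEB and SNAI factors read was searched as CAGGTG or CACCTG, which are 1 motif on its 2 strands, in RefSeq promoters (250 bases before to 50 bases after a start site, GRCh38.p14). Of all 35116 promoters, 17.5% held it. Of the 10 genes, 6 had 13 promoters in the table, and 1 gene, *ZEB1*, held a match, in 2 of its promoters. Of the epithelial list, 5 genes had 6 promoters there, and 3 of these promoters held a match (of *CLDN7*, *RAB25* and *MIR200CHG*). *CDH1* had no promoter there. Of a companion list of other mesenchymal genes, described below, 4 of 45 promoters (8.89%) held one. The stretches below, 30 bases each, show 1 match per gene in capitals. They are from *ZEB1* (chr10:31318348-31318377, plus strand), *RAB25* (chr1:156061107-156061136, plus strand), *MIR200CHG* (chr12:6963155-6963184, plus strand) and *CLDN7* (chr17:7262635-7262664, minus strand). *ZEB1* and *CLDN7* held further matches that are not printed, and the one printed for *CLDN7* was its farthest from the start site (174 bases). A match is a description of the letters, not a bound site.
ZEB1: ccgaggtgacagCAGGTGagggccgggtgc
RAB25: catctctccaccCACCTGggccccaggtct
MIR200CHG: ggcaggaggacaCACCTGtgcgcagggtgg
CLDN7: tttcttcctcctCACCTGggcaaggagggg

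The reads that could be solved from the FPKM steps summed to at least 25818866 and 21404440 in the SW480-labelled and DLD-1-labelled RIP, and to at least 11763027 and 11072357 in the Inputs. Of 7 colorectal epithelial markers, between 5 and 7 reached 1 FPKM in every library. *KRT20*, a keratin of differentiated colonocytes, was the marker with 0 in the SW480-labelled RIP, and stood at 0.0426 FPKM in the DLD-1-labelled Input, against 23.9 and 29.2 FPKM in the DLD-1-labelled RIP and the SW480-labelled Input. The fibroblast markers *COL1A1*, *COL3A1*, *DCN*, *THY1*, *PDGFRB* and *PDGFRA* summed to between 0.381 and 2.31 FPKM per library. Most of the higher sums was *PDGFRB*, at 1.60 FPKM in the SW480-labelled RIP and 2.02 in the DLD-1-labelled Input, and *COL3A1* was at 0 in 5 of the 6 expression columns. Leukocyte markers summed to at most 1.16 FPKM and endothelial markers to at most 0.808 FPKM.

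*VIM* (ENSG00000026025, chr10:17228241-17237593) encodes vimentin, the intermediate filament of mesenchymal cells. Its level was 128 FPKM in the SW480-labelled RIP, 0.077 in the SW480-labelled Input, 0.804 in the DLD-1-labelled RIP and 11.1 in the DLD-1-labelled Input. In the acRIP table it was 0.0881 FPKM in the SW480-labelled Input and 51.2 in the DLD-1-labelled one. The high columns were thus the SW480-labelled RIP and both DLD-1-labelled Inputs, and the other 3 were all below 1 FPKM. The low Input values rest on 3 reads in the RIP table and at least 5 in the acRIP table. In bulk RNA, fewer cells with a transcript and less of it per cell cannot be told apart. Between the RIP libraries, *VIM* was 159-fold higher in the SW480-labelled one (95% interval 122 to 212). Between Inputs, it was 145-fold higher in the DLD-1-labelled one (49.2 to 705) in the RIP table and 581-fold (249 to 1791) in the acRIP table. The antisense gene *VIM-AS1* overlaps the start of *VIM*, and whether counting used strand is not stated. It had 1.45 FPKM in the SW480-labelled RIP, 1.54 in the DLD-1-labelled Input and 79.1 in the DLD-1-labelled acRIP-table Input, and between 0 and 0.0882 in the other 3, so reads of the pair cannot be told apart.

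*ZEB1* (ENSG00000148516, chr10:31318417-31529804), a zinc finger repressor of *CDH1*, was found at 5.27 FPKM in the SW480-labelled RIP, 0.0764 in the SW480-labelled Input, 0.108 in the DLD-1-labelled RIP and 5.13 in the DLD-1-labelled Input. The acRIP-table Inputs gave 0.494 and 4.34 FPKM under the labels SW480 and DLD-1. The same 3 columns as for *VIM* were high. The SW480-labelled RIP stood 48.9-fold above the DLD-1-labelled one (30.4 to 84.3), and the DLD-1-labelled Input stood 67.1-fold above the SW480-labelled one (32.3 to 168). In the acRIP table the Input difference was smaller, 8.79-fold (6.49 to 12.2). The antisense gene *ZEB1-AS1* overlaps the start of *ZEB1* and did not follow it. It had 3.02 FPKM in the SW480-labelled RIP, 0.601 in the SW480-labelled Input, 4.06 in the DLD-1-labelled RIP and 0.681 in the DLD-1-labelled Input. As for *VIM*, reads of the overlap cannot be told apart without the strand setting. *ZEB2*, the paralog of *ZEB1*, was listed at 0 in all 6 expression columns.

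*SNAI1* (ENSG00000124216, chr20:49982980-49988886) encodes Snail, another repressor of *CDH1*, and differed from the pattern of *VIM*. It had 6.21 FPKM in the SW480-labelled RIP, 8.64 in the SW480-labelled Input, 5.82 in the DLD-1-labelled RIP and 1.93 in the DLD-1-labelled Input. In the acRIP table its level was 3.83 FPKM in the SW480-labelled Input and 0.877 in the DLD-1-labelled one. Both SW480-labelled Inputs were the higher ones, by 4.47-fold (3.22 to 6.33) and 4.36-fold (2.51 to 8.04). The RIP libraries differed by 1.07-fold, with an interval from 0.900 to 1.27 that includes no difference.

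*SNAI2*, which encodes Slug, was near the limit of detection. Its level was 0.185 FPKM (11 reads) in the SW480-labelled RIP, 0.238 (7 reads) in the SW480-labelled Input and 0.0198 (1 read) in the DLD-1-labelled RIP, and 0 in the other 3 columns. Between RIP libraries the ratio was 9.35 with an interval from 1.36 to 403. *TWIST1*, a basic helix-loop-helix factor of mesoderm and EMT, was listed at 0 in all 6 expression columns.

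*CDH2* (ENSG00000170558, chr18:27932879-28177130) encodes N-cadherin, which replaces E-cadherin in many mesenchymal cells. It went against *VIM*, at a low level. The DLD-1-labelled RIP had 0.330 FPKM (36 reads) and the SW480-labelled Input 0.268 (17 reads), whereas the SW480-labelled RIP had 0.0156 (2 reads) and the DLD-1-labelled Input had 0. The acRIP-table Inputs gave 0.275 and 0 FPKM under the labels SW480 and DLD-1. In the Inputs of the RIP table *CDH2* was at least 5.23-fold higher under the label SW480, taking 3 reads as the floor for a count of 0. In the RIP libraries it was 21.2-fold higher under the label DLD-1 (5.45 to 182). The reads of *CDH2* thus lay mainly in the libraries where *VIM* was low.

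*FN1* (ENSG00000115414, chr2:215360865-215436068) encodes fibronectin, a glycoprotein of the matrix. Its level was 10.5 FPKM in the SW480-labelled RIP, 0.433 in the SW480-labelled Input, 0.255 in the DLD-1-labelled RIP and 11.3 in the DLD-1-labelled Input, with 0.0682 and 5.42 in the acRIP-table Inputs under the labels SW480 and DLD-1. The SW480-labelled RIP was 41.1-fold higher than the DLD-1-labelled one (31.8 to 54.2). The Inputs differed in the reverse direction, by 26.2-fold (20.2 to 34.7) in the RIP table and 79.5-fold (46.3 to 150) in the acRIP table.

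*SPARC* (ENSG00000113140, chr5:151661096-151686915) encodes osteonectin, a collagen-binding secreted protein. It had 33.0 FPKM in the SW480-labelled RIP, 0 in the SW480-labelled Input, 0.804 in the DLD-1-labelled RIP and 16.8 in the DLD-1-labelled Input. The acRIP table gave 0.0188 FPKM (at least 1 read) in the SW480-labelled Input and 12.9 in the DLD-1-labelled one. Between RIP libraries the label SW480 was 41.0-fold higher (32.6 to 52.3). Between the Inputs of the RIP table the label DLD-1 was at least 302-fold higher.

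*LGALS1* (ENSG00000100097, chr22:37675636-37679802) encodes galectin-1, a secreted lectin abundant in stroma and mesenchymal cells. It was the only one of the 10 genes above 10 FPKM in every expression column: 268 in the SW480-labelled RIP, 104 in the SW480-labelled Input, 82.1 in the DLD-1-labelled RIP and 284 in the DLD-1-labelled Input, with 45.5 and 123 in the acRIP-table Inputs under the labels SW480 and DLD-1. Its differences had the directions of *VIM* but were smaller. The SW480-labelled RIP was 3.27-fold higher (3.07 to 3.47), and the DLD-1-labelled Inputs were 2.73-fold (2.53 to 2.94) and 2.71-fold higher (2.46 to 3.0).

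**Figure D1:**
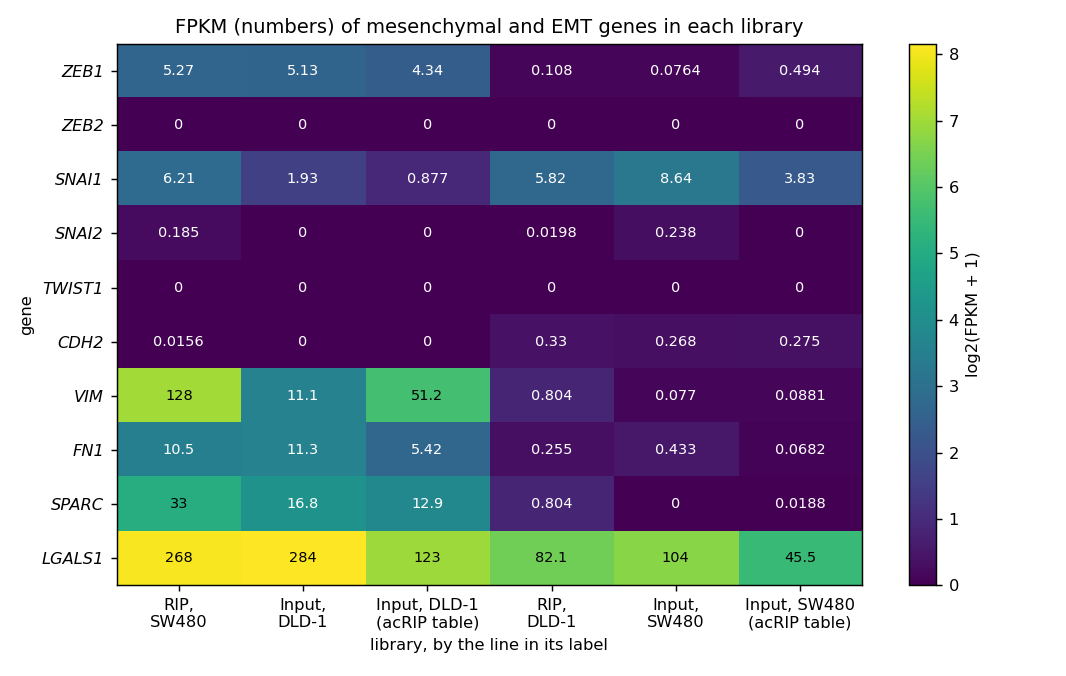
FPKM of the 10 genes (rows) in the 6 expression columns (libraries, by label), coloured by log2(FPKM + 1). The 3 columns on the left, the SW480-labelled RIP and both DLD-1-labelled Inputs, hold the high values of *ZEB1*, *VIM*, *FN1*, *SPARC* and *LGALS1*; *SNAI1* and *CDH2* do not follow them, and *ZEB2* and *TWIST1* are 0 throughout.

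The list was then counted with a call of at least 2-fold on the log2(FPKM + 1) scale, on which changes of low genes look smaller than they are. The 6 genes with a mean of at least 1 FPKM were counted, and 4 of them (*VIM*, *ZEB1*, *FN1* and *SPARC*) reached that mean only through the libraries where they were high, so their calls follow in part from the filter. Between the Inputs of the RIP table, 1 of the 6 genes, *SNAI1*, was higher under the label SW480, where 11.5% of 15086 genes were called. Higher under the label DLD-1 were 5 of 6 (*FN1*, *LGALS1*, *SPARC*, *VIM* and *ZEB1*), against 16.7% of all genes. The acRIP-table Inputs gave the same genes in the same directions, with 1 of 6 against 14.0% and 5 of 6 against 17.6% over 15556 genes. Between RIP libraries, *FN1*, *LGALS1*, *SPARC*, *VIM* and *ZEB1* were again called, now higher under the label SW480 (5 of 6 against 11.8%), and none was higher under the label DLD-1 (7.74%). The median difference of the 6 genes, SW480 minus DLD-1, was -2.81 on the log2 scale in the Inputs and 2.85 in the RIP libraries, against -0.06 and 0.03 over all genes tested.

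Put against the background knowledge of the lines, the RIP pair had vimentin and *ZEB1* higher under the label SW480, and both Input pairs had them higher under the label DLD-1. The pattern of 2-fold higher in both DLD-1-labelled Inputs and in the SW480-labelled RIP held for 5 of the 6 genes, and for 7.69% of the 13218 genes tested in both tables. The mirror pattern held for none of the 6 genes and for 4.44% of all genes. A difference of 2-fold in one direction by label in all 3 pairs also held for none of the 6, and for 0.310% of all genes. Whether any library carries the label of the other line was not tested.

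**Figure D2:**
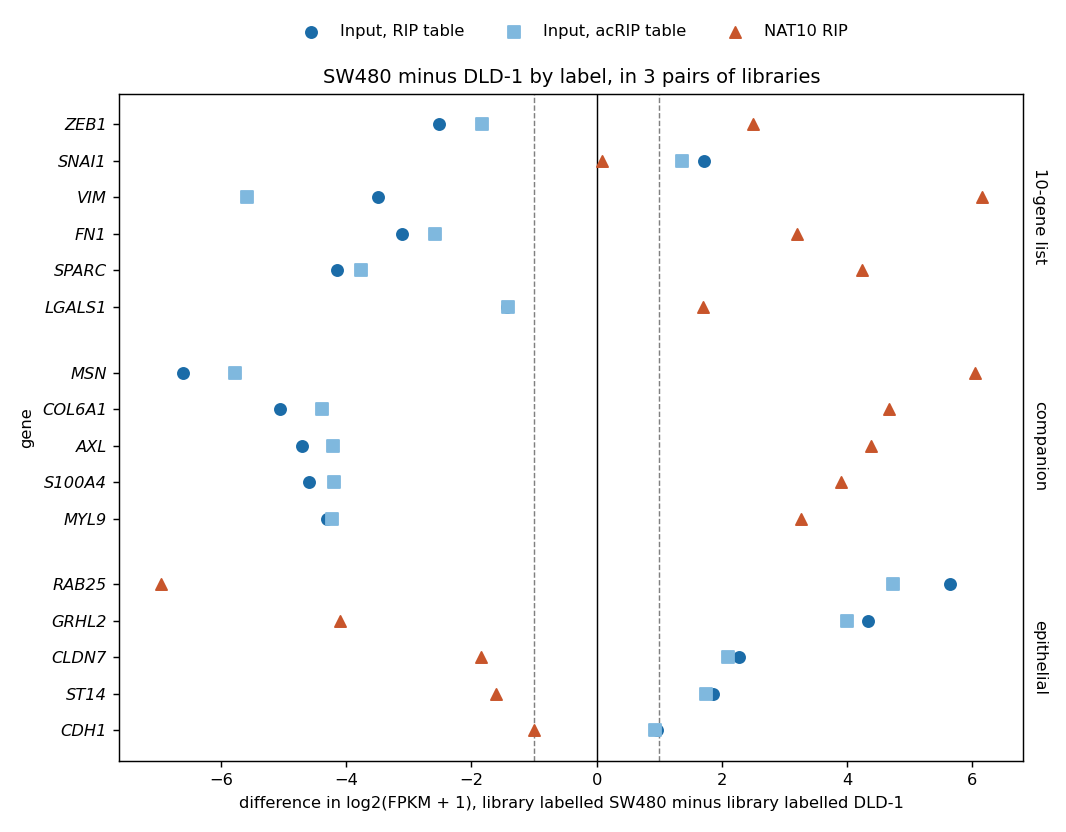
Difference in log2(FPKM + 1), SW480-labelled library minus DLD-1-labelled library (horizontal axis), for 6 genes of the 10-gene list, 5 companion mesenchymal genes and 5 epithelial genes; circles and squares are the Inputs of the RIP and acRIP tables, triangles the NAT10 RIP, and dashed lines mark 2-fold. For *LGALS1* the square covers the circle. Triangles lie on the other side of 0 from the Inputs in every gene shown except *SNAI1*, whose 3 points are all above 0 (RIP 0.08, or -0.03 after centring on protein-coding genes, and Inputs 1.72 and 1.36).

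Other mesenchymal genes were taken from a companion list of 45, of which 25 had a mean of at least 1 FPKM. Of the 25, 10 were below 1 FPKM in both the SW480-labelled Input and the DLD-1-labelled RIP, so that their calls, too, follow in part from the filter. Between RIP-table Inputs, 14 were called higher under the label DLD-1 (16.7% of all genes) and 1 (*NT5E*) under the label SW480 (11.5%). Between RIP libraries 13 were higher under the label SW480 (11.8% of all genes) and 1, again *NT5E*, under the label DLD-1 (7.74%). Without the filter the counts over the 42 companion genes above 0 were 15 and 1 in the Inputs and 13 and 1 in the RIP libraries. The median difference over the 25 was -1.48 in the Inputs and 1.70 in the RIP libraries. Among the genes with the largest Input differences, *MSN*, which encodes the membrane-cytoskeleton linker moesin, had 83.7 FPKM in the SW480-labelled RIP, 0 in the SW480-labelled Input, 0.282 in the DLD-1-labelled RIP and 96.1 in the DLD-1-labelled Input. *COL6A1*, a collagen VI chain, had 32.6, 0.0484, 0.318 and 33.8 FPKM in the same order. Both genes were high in the SW480-labelled RIP and the DLD-1-labelled Input at nearly equal levels. The receptor tyrosine kinase gene *AXL* had 45.2, 1.04, 1.21 and 52.5 FPKM in that order. *S100A4*, a calcium-binding protein gene linked to motility, had 142, 7.16, 8.57 and 197 FPKM. For *MYL9*, a myosin light chain, the values were 12.7, 0.243, 0.422 and 23.5 FPKM. *NT5E*, the 1 gene called in the opposite directions, encodes the surface nucleotidase CD73 and had 18.4, 40.3, 49.1 and 14.9 FPKM. *SNAI3*, with 0.448, 0.0790, 1.67 and 3.51 FPKM, was higher under the label DLD-1 in the Inputs and in the RIP libraries. *TCF4*, below the mean of 1 FPKM, went against *VIM*, with 0.0202, 0.754, 0.823 and 0 FPKM. *NT5E*, *SNAI3* and *TCF4* were named after their values were seen.

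Of the epithelial list of 13 genes, 8 were called higher under the label SW480 between RIP-table Inputs, and none under the label DLD-1. Of all genes, 11.5% and 16.7% were called in these directions. Between acRIP-table Inputs the counts of the list were 7 and 1 of 12, against 14.0% and 17.6% of all genes. The 1 gene, *CLDN3*, which encodes another claudin and was named after its values were seen, went against the list, with 30.8 and 57.6 FPKM in the RIP-table Inputs and 36.5 and 28.3 FPKM in the RIP libraries (SW480 first). Between RIP libraries 9 of 13 were higher under the label DLD-1 (7.74% of all genes) and none under the label SW480 (11.8%). Without the filter the counts in the RIP-table Inputs and the RIP libraries were the same. *RAB25*, an epithelial trafficking GTPase gene, had 0.122 FPKM in the SW480-labelled RIP, 55.5 in the SW480-labelled Input, 139 in the DLD-1-labelled RIP and 0.133 in the DLD-1-labelled Input. *GRHL2*, an activator of epithelial genes, had 0.0129, 20.0, 16.4 and 0.0424 FPKM in the same order. Both were thus absent or nearly so where *VIM* was high. They reached the mean only through the libraries where they were high, so their calls follow in part from the filter. The tight junction gene *CLDN7* had 31.1, 41.9, 115 and 7.86 FPKM, and *ST14*, a membrane serine protease gene, had 28.2, 126, 88.0 and 34.1 FPKM. *CDH1*, which encodes E-cadherin, was present in every library, at 89.5, 107, 180 and 54.1 FPKM. It was 1.97-fold higher in the SW480-labelled Input (1.87 to 2.09) and 2.01-fold higher in the DLD-1-labelled RIP (1.95 to 2.08).

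*MIR200CHG*, the host transcript of miR-200c and miR-141, had 2.99 FPKM in the SW480-labelled RIP, 3.13 in the SW480-labelled Input, 11.0 in the DLD-1-labelled RIP and 0 in the DLD-1-labelled Input, with 0 in both acRIP-table Inputs. The microRNA rows of the table, chosen after their values were seen, count fragments of precursors or host transcripts and not mature microRNAs. The *MIR200A* row had 0, 14.4, 4.41 and 0 FPKM in that order (0, 19, 10 and 0 reads), and that of *MIR141* 0, 4.32, 4.18 and 0 FPKM (0, 3, 5 and 0 reads). Their few RIP-table reads lay in the libraries where *ZEB1* was low. *MIR200B*, with 0, 10.1, 14.2 and 8.58 FPKM, had reads in a library with high *ZEB1* as well. *MIR200C* and *MIR429* had 11.1 and 10.5 FPKM in the DLD-1-labelled RIP. They were at 0 in every other column, including the SW480-labelled Inputs, where *ZEB1* was low too. In the acRIP-table Inputs only *MIR200A* was above 0 among these rows, at 18.2 FPKM under the label SW480.

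The comparison of the study, NAT10 RIP over Input, was then taken by label, in the same libraries as the differences above. In the libraries labelled SW480, RIP was at least 2-fold above Input for 5 of the 6 genes (*FN1*, *LGALS1*, *SPARC*, *VIM* and *ZEB1*), where 21.0% of all genes were called, and for none was it 2-fold below (16.6%). In the libraries labelled DLD-1, RIP was 2-fold above Input for 1 of 6, *SNAI1* (17.4%), and 2-fold below for the other 5 (22.5%). *VIM* had a log2 ratio of 6.90 under the label SW480 and -2.75 under the label DLD-1. For *SPARC* these were 5.09 and -3.30, for *FN1* 3.01 and -3.30, for *ZEB1* 2.54 and -2.47, and for *LGALS1* 1.36 and -1.78. *SNAI1* had -0.42 and 1.22, and over the acRIP-table Inputs 0.58 and 1.86, so its sign under SW480 depended on which Input values were used. The companion list had 13 of 25 genes 2-fold above Input and 1 below under the label SW480, and 1 above and 15 below under the label DLD-1.

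Over the RIP-table Input of the other label, the ratios of *ZEB1*, *FN1* and *LGALS1* were near 0. *ZEB1* had a log2 ratio of 0.03 for the SW480-labelled RIP and 0.04 for the DLD-1-labelled one, and its FPKM ratios were 1.03 (0.916 to 1.15) and 1.41 (0.555 to 4.02), with intervals that include no difference. *FN1* had log2 ratios of -0.10 and -0.19, and *LGALS1* -0.08 and -0.34. The FPKM ratios of *FN1* were 0.925 (0.868 to 0.987) and 0.590 (0.404 to 0.863). Those of *LGALS1* were 0.946 (0.9015 to 0.994) and 0.790 (0.727 to 0.859), and the intervals of both genes exclude no difference. *SPARC* had log2 ratios of 0.94 and 0.85. In FPKM it was 1.97-fold above Input in the SW480-labelled RIP (1.82 to 2.12) and at least 14.5-fold above in the DLD-1-labelled RIP (75 reads against 0). *VIM* remained above Input in the SW480-labelled RIP, at 3.41, or 11.5-fold in FPKM (10.4 to 12.7), and at 0.74 in the DLD-1-labelled RIP, or 10.4-fold in FPKM (3.39 to 52.2), which rests on 3 Input reads. At these low levels the pseudocount of 1 FPKM sets much of the log2 ratio. *SNAI1* had log2 ratios of 1.30 and -0.50. The acRIP-table Inputs, whose scale was set separately, gave other values. For the SW480-labelled RIP over the DLD-1-labelled one, the log2 ratios were 1.94 for *SNAI1*, 1.30 for *VIM*, 1.29 for *SPARC* and 1.11 for *LGALS1*. *FN1* had 0.84 and *ZEB1* 0.23. For the DLD-1-labelled RIP over the SW480-labelled one, they lay between -0.43 (*ZEB1*) and 0.84 (*LGALS1*). How near to 0 a ratio was thus depended on which Input values were used.

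**Figure D3:**
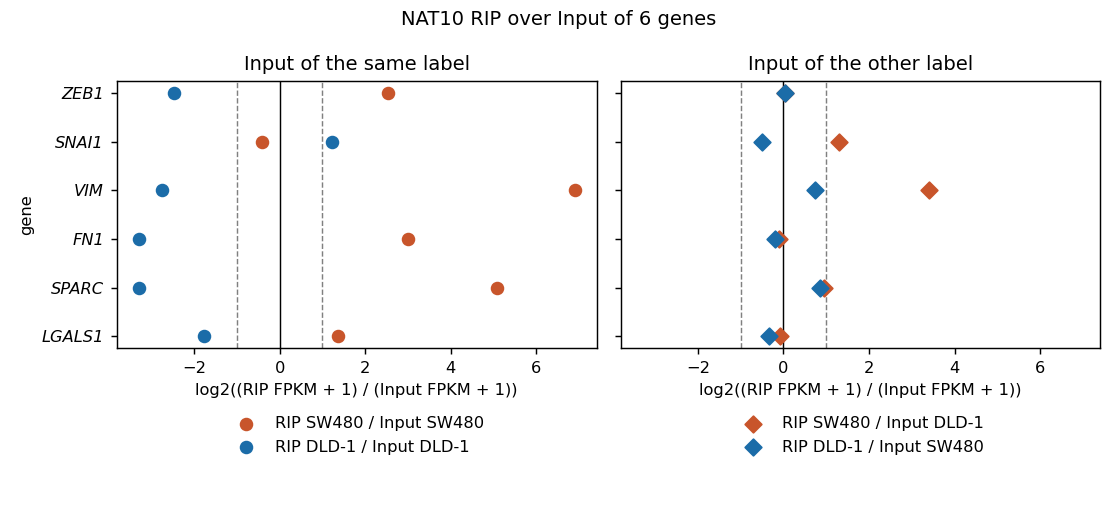
Log2((RIP FPKM + 1) / (Input FPKM + 1)) of 6 genes (horizontal axis) with the Input of the same label (left) and of the other label (right); colours give the label of the RIP library, and dashed lines mark 2-fold. On the left the labels lie on opposite sides of 0 in all 6 genes with these RIP-table Inputs, and on the right *VIM* (3.41) and *SNAI1* (1.30) in the SW480-labelled RIP are the points past 2-fold.

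As a single measure, the absolute log2 distance of each RIP library to an Input was summed over both RIP libraries. The sum was smaller for the Inputs of the other label in 5 of the 6 genes (*FN1*, *LGALS1*, *SPARC*, *VIM* and *ZEB1*), as it was in 43.9% of all genes. Where the RIP and Input differences of a gene have opposite signs, the sum for the other label cannot be the larger one. The result for these 5 genes thus follows from the differences above and is no independent support. Of all genes, 7.46% were nearer to the Inputs of the same label, and 48.7% were ties (sums within 1e-09), as where both RIP libraries lie on 1 side of both Inputs. For *ZEB1* the sum fell from 5.01 with the same label to 0.07 with the other, for *FN1* from 6.30 to 0.29, for *LGALS1* from 3.14 to 0.42, for *SPARC* from 8.39 to 1.79 and for *VIM* from 9.65 to 4.15. *SNAI1* was nearer to the same label, 1.64 against 1.80, but to the other label after centring on protein-coding genes, 1.84 against 1.78, and the acRIP-table Inputs gave a tie. Over all 15086 genes the median sums were 1.61 and 1.05. Among the companion genes 20 of 25 were nearer to the other label, and among the epithelial genes 12 of 13.

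ac4C peaks were examined next, in the lists called per acRIP library. A peak's fold is its enrichment as deposited, and peaks in the libraries labelled SW480 and DLD-1 had median folds of 19.5 and 14.6. Of the 6 genes with a mean of at least 1 FPKM, 3 hosted a peak in the SW480-labelled library (*FN1*, *LGALS1* and *VIM*), where 38.1% of all genes did, and 1 in the DLD-1-labelled one (*LGALS1*, 41.7%). Counting all 10 genes, 4 had 9 peaks in the SW480-labelled library and 3 had 6 peaks in the DLD-1-labelled one. In the list called on pooled libraries, 4 genes had 10 peaks (*SNAI2* 4, *FN1* 3, *TWIST1* 2 and *LGALS1* 1).

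*FN1* had 5 peaks in the SW480-labelled acRIP library, all placed in exons, and none in the DLD-1-labelled one. The strongest covered 300 bases in 3 blocks within chr2:215364956-215367699 on the minus strand, with a fold of 181, a deposited p of 1.6e-53 and 1 site of the authors' 12-base motif of evenly spaced Cs. The pooled list lacked this peak, and its 3 peaks on *FN1* had folds of 3.52, 20.8 and 2.01. The other peaks in the SW480-labelled library had folds of 68.7, 47.9 and 31.2, and the weakest, at 9.37, had a false discovery rate (FDR) of 0.396. *VIM* had a single weak peak in the SW480-labelled library (chr10:17235274-17235424, exon, fold 9.37, deposited FDR 0.106) and none in the DLD-1-labelled one. As solved, the SW480-labelled acRIP-table Input held at least 13 reads of *FN1* and 5 of *VIM*, and the DLD-1-labelled one at least 1016 and 2856. Both genes thus had peaks under the label whose Input held few of their reads. How the Input entered these folds was not tested.

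*LGALS1* had 2 peaks in each library. In the SW480-labelled library the first lay at chr22:37676896-37677192, assigned to coding sequence, with a fold of 2010, above 99.7% of the peaks of that list. Its deposited FDR could not be read, and the pooled list had no peak there. This first peak shared 209 bases with a peak of the DLD-1-labelled library (chr22:37676955-37677163), which had a fold of 26.0. The second, in the 3′ UTR, had folds of 28.0 and 171 under the labels SW480 and DLD-1 and shared 386 bases. The order of the folds between labels was thus opposite at the 2 sites.

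Peaks were also listed on genes with few or no Input reads. *SNAI2* had 1 peak in the 3′ UTR in the SW480-labelled library (fold 53.1), and 3 in the DLD-1-labelled one with folds of 14.2, 13.4 and 120, the first at the same 180 bases as the peak under SW480. Its strongest, in coding sequence, covered 627 bases and held 5 motif sites. *TWIST1* had 1 peak in its 3′ UTR in the DLD-1-labelled library (chr7:19115878-19116057, fold 29.9, deposited FDR 3.39e-08), although the gene was listed at 0 in every expression column. No peak was listed in either library for *ZEB1*, *ZEB2*, *SNAI1*, *CDH2* or *SPARC*.

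**Figure D4:**
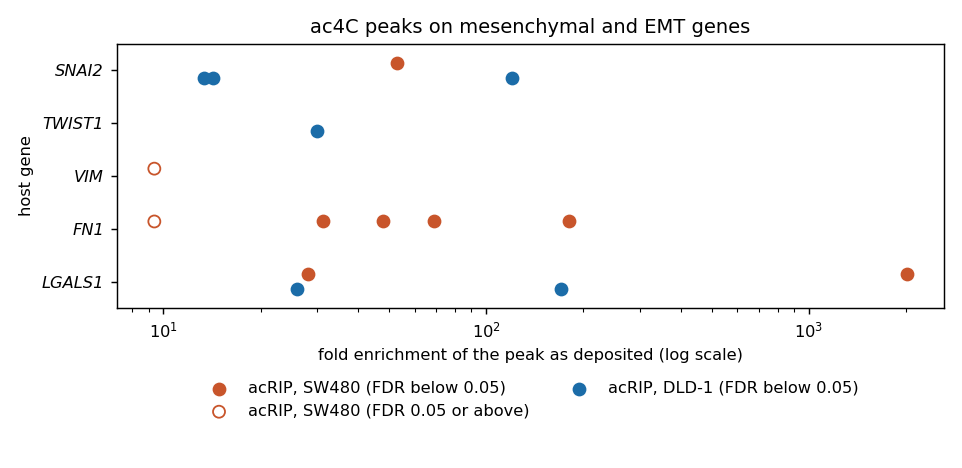
Fold enrichment as deposited (horizontal axis, log scale) of each ac4C peak on the 5 host genes of the list that had one, by acRIP library; open circles have an FDR of 0.05 or above. *FN1* and *VIM* have peaks in the SW480-labelled library alone, *TWIST1* in the DLD-1-labelled one alone, and *LGALS1* and *SNAI2* in both.

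Among the companion genes, 14 had peaks in the SW480-labelled acRIP library alone, 1 (*TPM2*) in the DLD-1-labelled one alone and 10 in both. Of the 25 with a mean of at least 1 FPKM, 6, 1 and 10 were in these classes, against 8.86%, 12.5% and 29.3% of all 15086 genes. The 14 include *COL6A1* and *S100A4*, and also *COL1A1*, with 6 peaks and a highest fold of 61.4 at no more than 0.381 FPKM in any expression column. Among the epithelial genes none had peaks under SW480 alone, 3 (*CDH1*, *EPCAM* and *ESRP2*) had them under DLD-1 alone and 7 in both, all 13 being above that mean. Over all genes at least 2-fold higher in both DLD-1-labelled Inputs, 167 of 1570 (10.6%) had peaks under the label SW480 alone and 86 (5.48%) under the label DLD-1 alone. Of the 1110 genes higher in both SW480-labelled Inputs, 47 (4.23%) had them under SW480 alone and 123 (11.1%) under DLD-1 alone.

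The genes whose pattern was most like that of *VIM* over the 6 expression columns were found among 11605 protein-coding genes, by Euclidean distance of centred log2(FPKM + 1). They were *HIST1H3C* (distance 1.76), *FABP3* (1.96), *IGFBP7* (2.03), *KRT23* (2.14) and *SLC2A3* (2.14). *IGFBP7*, which encodes a secreted binding protein, had 31.0 FPKM in the SW480-labelled RIP, 0 in the SW480-labelled Input, 0.389 in the DLD-1-labelled RIP and 11.3 in the DLD-1-labelled Input. *FABP3*, a fatty acid-binding protein gene, had 117, 0, 1.04 and 45.7 FPKM in the same order. *SLC2A3*, which encodes the glucose transporter GLUT3, had 72.3, 0.465, 1.14 and 45.5 FPKM. For *KRT23*, a keratin gene, the values were 50.8, 0, 0.120 and 32.1 FPKM. In *HIST1H3C*, a replication-dependent histone gene with near-identical copies whose reads counting could split, the values were 114, 0.166, 0 and 11.7 FPKM.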

How the data were processed

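The 10 genes, the lists and the comparisons were chosen with earlier results of these data known. The authors deposited FPKM values per gene for RIP and Input libraries, with ratio columns of RIP to Input that were not used, and a second table of Input values of unnamed unit, read as FPKM and normalised separately. Peak lists carry the authors' p-value, FDR and fold enrichment. All FDR cells spoiled by a spreadsheet were taken as below 0.05. Among the 10 genes these were cells of *LGALS1* peaks, whose deposited p was 0. The submitters' processing notes name cutadapt 2.5, HISAT2 2.1.0 and GRCh38. The counting tool, strand setting and peak caller are not given in the sources used here.

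Here, ratios were log2 of FPKM plus a pseudocount of 1, over genes with a mean of at least 1 FPKM, and a call was a 2-fold ratio. No test was run. Whole reads were solved from the steps between FPKM columns (the smallest whole numbers, so intervals are at their widest), for 23515 of 23515 genes above 0 in at least 2 RIP-table libraries. The solving was tested on simulated data for the RIP-table columns only. Reads of the acRIP-table Inputs are least values that can lie below the true ones. For example, the companion gene *FSCN1*, at 20.2 and 12.3 FPKM there, was solved as 5 and 3 reads. FPKM ratios have exact conditional (Clopper-Pearson) 95% intervals. PCR copies are not independent molecules, so intervals and the floor of 3 reads cover counting error only. Named were the 10 genes, the 6 companion and 4 epithelial genes with the largest Input differences of 1 sign in both tables, *CDH1*, and the 5 genes most like *VIM*. One companion gene is not reported here. Python 3.11.15, pandas 2.3.3 and scipy 1.17.1 were used.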

Additional observations from a re-analysis of the deposited data

Results flagged for a closer look

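The ratio of NAT10 RIP to Input had opposite signs under the labels SW480 and DLD-1 in all 6 genes with a mean of at least 1 FPKM. The share of all genes with opposite signs was not counted, so the count cannot be read as particular to these genes. By the summed distance above, a different measure, 43.9% of all genes were nearer to the Inputs of the other label. By that measure 7.46% were nearer to those of the same label, and 48.7% were ties. Each side holds 1 library, and this difference between labels was not tested. The log2 ratio under SW480 minus that under DLD-1 was 9.65 for *VIM*, 8.39 for *SPARC*, 6.30 for *FN1*, 5.01 for *ZEB1*, 3.14 for *LGALS1* and -1.64 for *SNAI1*. In absolute size these are the same-label sums given above, not a further result. For *SNAI1* the signs were opposite with the RIP-table Inputs only. Over the acRIP-table Inputs both of its ratios were positive, at 0.58 under SW480 and 1.86 under DLD-1.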

How the results depend on the processing

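The count of genes past 2-fold for RIP over Input was also taken with the RIP-table Input of the other label. It went from 5 to 2 under the label SW480 and from 6 to 0 under the label DLD-1. With a pseudocount of 0.1 FPKM as well, an alternative chosen after seeing the data, the counts were 2 and 2. The sign turned in 6 ratios that had passed 2-fold: those of *FN1* (-0.10) and *LGALS1* (-0.079) in the RIP labelled SW480, and those of *VIM* (0.74), *ZEB1* (0.041), *SPARC* (0.85) and *SNAI1* (-0.50) in the RIP labelled DLD-1. The other counts stayed within 1.5 times under a pseudocount of 0.1 FPKM, centring on protein-coding genes, no filter on low values, the acRIP-table Inputs, an FDR below 0.05, the pooled peak list and an overlap of 50% of each peak. Of 78 values of single genes under an alternative, 69 kept their sign. In size, 34 were classed as the same, 38 as moved and 6 as reversed. For example, the Input difference of *VIM* (-3.50) became -5.99 with a pseudocount of 0.1 FPKM. The 3 sign turns not yet named were all of *SNAI1*: RIP over Input under SW480 (-0.42) became 0.58 with the acRIP-table Input and 1.30 with the Input of the other label, and the RIP difference (0.08) became -0.03 after centring. No paired analysis was possible because each group holds 1 library. Levels under about 3 reads are at the limit of this depth, and the acRIP libraries have no expression column here.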
